A study of Mus musculus with 4 samples.

Results

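Vascular mural cells are the pericytes and smooth muscle cells that wrap the endothelial tubes of blood vessels. In the mammary tumors studied here they were the 218 of 23572 kept droplet barcodes that carried the mural transcripts Rgs5, Notch3 and Cspg4 and passed limits on a few marker genes of other classes. A barcode was kept with at least 1000 unique molecular identifiers (UMIs, each standing for 1 captured RNA molecule) and with at most 20% of its UMIs from mitochondrial genes. It was taken as mural when Rgs5, Notch3 and Cspg4 together had at least 3 UMIs, at least 2 of these genes were detected and Rgs5 had at least 1 UMI. Ptprc, Pecam1 and Pdgfra, which mark leukocytes, endothelium and fibroblasts, had to be at 0, and Epcam, Krt8 and Krt18 together had to stay under 10 per 10000 UMIs. The members were thus chosen by the measured levels of these genes, whose values below are a description.

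The 4 libraries came from 1 mouse each, whose tumors were taken at 17 to 18 weeks of age, and were made with the 10x Genomics 3' v3 kit. The 2 control mice (Cre- replicates 1 and 3) were MMTV-Cre-; Frmd8 fl/fl; PyMT, and the 2 Frmd8-deleted mice (Cre+ replicates 2 and 4) were MMTV-Cre+; Frmd8 fl/fl; PyMT. All 4 mice therefore carried the floxed Frmd8 alleles and the PyMT oncogene, which the MMTV promoter drives in mammary epithelium, and only the Cre+ mice carried the MMTV-Cre transgene, which is meant to delete Frmd8 in luminal epithelium and not in mural cells. Values of single libraries are given below with the Cre- replicates 1 and 3 before the Cre+ replicates 2 and 4.

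Pericytes share a basement membrane with the endothelium and are drawn to growing vessels by endothelial PDGF-B, which binds the receptor Pdgfrb on their surface. Endothelial Notch ligands act on mural Notch3 and hold these cells in a mature state. Arterial and arteriolar smooth muscle cells are rich in the contractile apparatus of Acta2 and Myh11, whereas capillary pericytes hold less of it and are known for ATP-sensitive potassium channels made of Kcnj8 and Abcc9. Tumor vessels are known for loose and uneven coverage by these cells.

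The mural cells numbered 68, 53, 52 and 45. Their median depth was 13741.5, 15880, 13538.5 and 24775 UMIs per cell, and together they held 1022010, 906132, 839566 and 1090252 UMIs. Of 327 barcodes that met the criterion on the 3 mural genes, 38 had a Ptprc UMI, 18 a Pecam1 UMI, 35 a Pdgfra UMI and 70 failed the epithelial limit, with some failing several. The threshold of 3 UMIs lay in a sparse range, since 4 otherwise fitting barcodes had exactly 2 UMIs of the 3 genes, none had 3, 10 had 4 to 9 and 208 had 10 or more. No mural barcode occurred as a mural barcode in another library.

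Cre+ replicate 4 stood apart from the other libraries. It was deposited with all 2582424 barcodes, against 7020 to 8017 called cells in the others, and it was made with another version of Cell Ranger. Rgs5 was at 11195, 8921, 10638 and 3190 counts per 1000000 UMIs (CPM), so the level in Cre+ replicate 4 was the lowest. The median UMI sum of Rgs5, Notch3 and Cspg4 per mural cell was 188, 162, 178 and 45. Dcn, a proteoglycan of fibroblasts, was at 53.8, 19.9, 42.9 and 662 CPM in mural cells, against 5396, 6281, 6865 and 9246 CPM in fibroblasts, whereas Lum, also of fibroblasts, was at 1.96, 2.21, 2.38 and 11.9 CPM in mural cells. In mural cells 58 of 68, 45 of 53, 41 of 52 and 19 of 45 had no UMI of Dcn or Lum. Krt14, a keratin of myoepithelium, reached 60.5 CPM in the mural cells of Cre+ replicate 4 and 1.19 CPM or less in the others. The part of this library's fibroblast-type and keratin transcripts in the genotype results was not tested, and values without this library stand beside the genotype results below. The genotype fit called 0 of 7461 genes in mural cells without Dcn or Lum. It called 0 of 7478 with a stricter gate, which also removed barcodes with Krt5 or Krt14. As the main fit called 0 genes too, these counts do not measure that part.

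The label was checked with Pdgfrb, which the rule did not use. Pdgfrb was detected in 214 of the 218 cells. It was at 1182, 829, 925 and 602 CPM in mural cells, at 206, 143, 104 and 130.4 CPM in fibroblasts and at 6.69 CPM or less in endothelial cells. Its level in every mural library thus lay above that in every fibroblast library. With all cells thinned to 2000 UMIs, 92.2%, 70.6%, 88.5% and 65.9% of mural cells held a Pdgfrb UMI, against 25.1%, 24.4%, 15.4% and 25.8% of fibroblasts and none of the endothelial cells, which should lack the gene. The endothelial cells were also chosen with Rgs5 at 0, so a rule gene took part in that absence. Immune cells, chosen without regard to Rgs5, held a thinned Pdgfrb UMI in 0.363%, 0.442%, 0.116% and 0.130% of cells. Unthinned, the shares with a Pdgfrb UMI were 100%, 96.2%, 100% and 95.6% in mural cells and 79.0%, 83.8%, 77.6% and 81.6% in fibroblasts. Notch3 was at 664, 471, 559 and 230.2 CPM and Cspg4 at 346, 260.4, 197 and 198 CPM in mural cells.

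**Figure D1:**
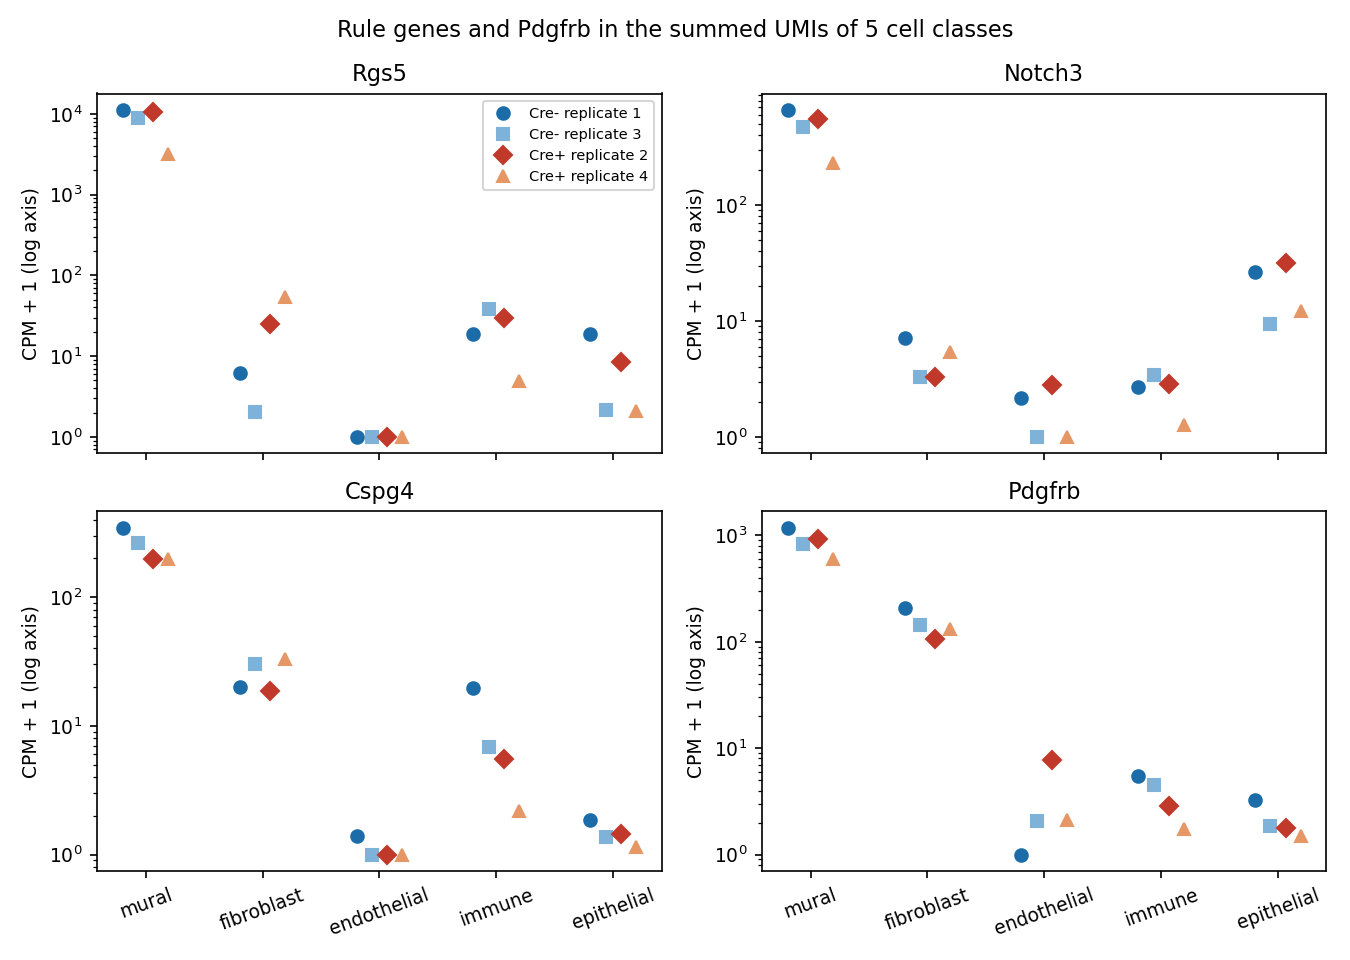
The levels of Rgs5, Notch3, Cspg4 and Pdgfrb as CPM + 1 on a log axis in the summed UMIs of 5 cell classes, with 1 point per library and no error bars. Mural cells hold the highest level of each gene, the rule fixed this for the first 3 genes and set Rgs5 to 0 in endothelial cells, and Cre+ replicate 4 has the lowest mural Rgs5 at 3190 CPM.

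Frmd8, the floxed gene, was examined first across classes. Mural cells held 38, 23, 25 and 33 Frmd8 UMIs, or 37.2, 25.4, 29.8 and 30.3 CPM, with exact 95% Poisson intervals of 26.3 to 51.0, 16.1 to 38.1, 19.3 to 44.0 and 20.8 to 42.5 CPM that cover counting error only. The mural values of the genotypes overlapped. In epithelial cells, the class in which MMTV-Cre is meant to act, Frmd8 was at 25 and 24.2 CPM in the Cre- libraries and at 5.84 and 10.8 CPM in the Cre+ libraries, with no overlap. The Cre+ values were also the lower ones in immune cells (28.9 and 26.7 against 20.8 and 15.3 CPM). The same order held in fibroblasts (17.3 and 19.1 against 15.5 and 13.6 CPM) and endothelial cells (31.4 and 35.4 against 29.2 and 30.02 CPM). The exact 95% counting intervals of the genotypes overlapped in fibroblasts and endothelial cells, but not in immune or epithelial cells. These differences in the other classes were not tested. Among all genes tested in mural cells, 16.6% were lower in both Cre+ libraries. The 3' counts of a floxed gene need not vanish, as the kit reads the end of the transcript and the deletion removes inner exons. The log2 difference of mural Frmd8 between Cre+ and Cre- was -0.03 ± 0.33 (SE, 2 against 2 libraries, edgeR quasi-likelihood test, adjusted p = 0.998).

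**Figure D2:**
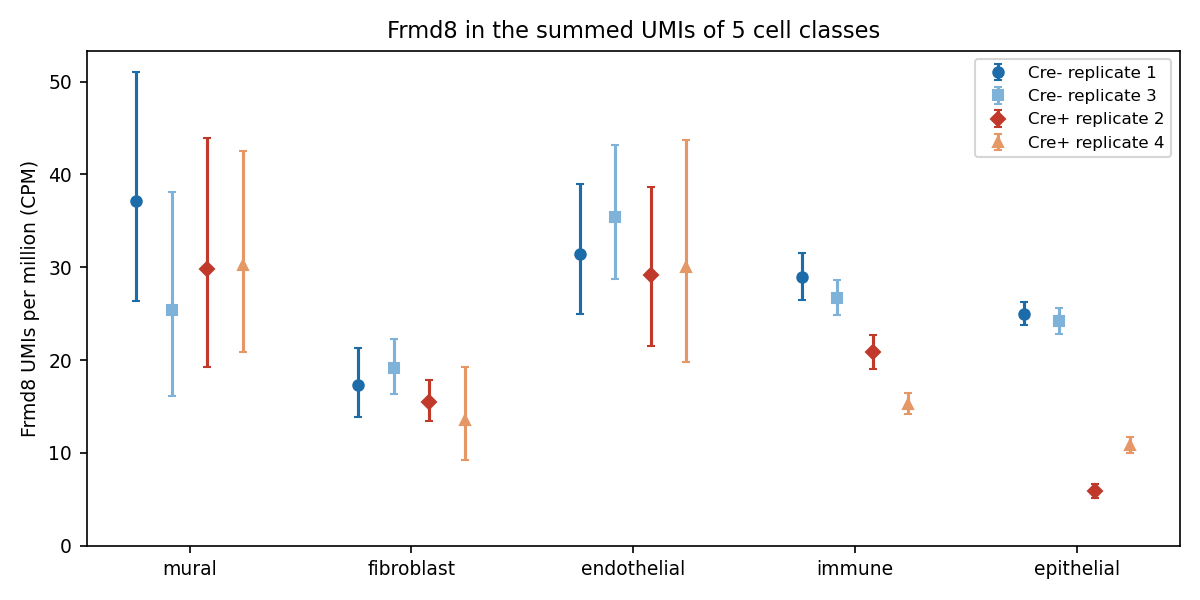
Frmd8 as CPM in the summed UMIs of 5 cell classes, with 1 point per library and bars for exact 95% Poisson intervals of counting error. Mural points lie between 25.4 and 37.2 CPM in both genotypes, while the epithelial points of the Cre+ libraries, at 5.84 and 10.8 CPM, lie under those of the Cre- libraries.

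The mural cells were then compared with the 966 fibroblasts, the other mesenchymal class of the tumor. Fibroblasts held Pdgfra, at least 20 UMIs of Col1a1, Col1a2 and Col3a1 per 10000 UMIs, and no Ptprc or Pecam1. The epithelial limit of mural cells applied to them too, and to endothelial and immune cells. Endothelial cells held Pecam1 and Cdh5 and no Ptprc, Pdgfra or Rgs5. Immune cells held Ptprc and no Pecam1 or Pdgfra. Epithelial cells were at or over that limit and held no Ptprc, Pecam1 or Pdgfra. UMIs were summed per library and class, so that each mouse gave 1 value per class. Of 9843 genes tested, 1712 were higher in mural cells (17.4%) and 2076 were lower (21.1%) at an adjusted p under 0.05 (edgeR quasi-likelihood test with Benjamini-Hochberg adjustment). The median log2 difference of all genes tested was -0.01. The counts of each gene list below are to be set against these shares of 17.4% and 21.1%. Both classes were cut by marker genes, so genes that travel with those markers had to differ, and the values below describe how the classes were composed. Without Cre+ replicate 4 the counts were 1975 and 2406.

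The genes with the largest differences in favor of mural cells were led by Higd1b and Cox4i2. Higd1b, a small mitochondrial protein known as a pericyte marker, was at 869, 903, 1067 and 783 CPM in mural cells and at 0.785, 0, 0.238 and 0.438 CPM in fibroblasts (log2 difference 11.32 ± 0.43, adjusted p = 2.24e-07 by edgeR). Cox4i2, an oxygen-sensitive subunit of cytochrome c oxidase, was at 847, 733, 715 and 240.3 CPM in mural cells and at 0.921 CPM or less in fibroblasts. All 4 mural libraries stood above all fibroblast libraries for both, with Cre+ replicate 4 lowest. Gja4, a connexin of arterial gap junctions, was at 243, 259, 191 and 51.4 CPM in mural cells and had 2 UMIs in all fibroblasts together, a ratio of 2597 with a 95% counting interval of 716 to 21483. Ppp1r14a, an inhibitor of the myosin phosphatase, was at 424, 512, 399 and 465 CPM in mural cells against 0.589, 0.345, 0.635 and 4.81 CPM in fibroblasts, and it was as high in Cre+ replicate 4 as elsewhere. Fibroblasts had no UMI of the potassium channel Kcnk3, the calsequestrin Casq2 or the class I MHC family gene H2-M9, and mural cells were at least 141-fold, 166-fold and 495-fold higher against a floor of 3 UMIs over all fibroblasts. H2-M9 belongs to a family of close copies, so its count is uncertain. Apold1, Olfr558, Klk8 and Phox2a were also among the genes of largest difference.

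In the other direction the largest difference was that of Sema3c. Sema3c, a guidance ligand, was at 279, 288, 634 and 308 CPM in fibroblasts and had no UMI in the 218 mural cells, which puts mural cells at least 566-fold lower. The Wnt inhibitor Sfrp4 and the ligand Wnt2 were also without a UMI, at least 359-fold and 161-fold lower. Efemp1, a fibulin of the matrix, had 1 mural UMI and 677, 783, 786 and 584 CPM in fibroblasts. Crabp1, a retinoic acid binding protein, was at 956, 214, 29.3 and 6.56 CPM in fibroblasts, so that its level there varied far more between mice than that of the others. Flrt2, Itgbl1, Ptgis, Penk, Chl1, Col8a2 and Adam23 made up the rest of this set, and each of them had no mural UMI.

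**Figure D3:**
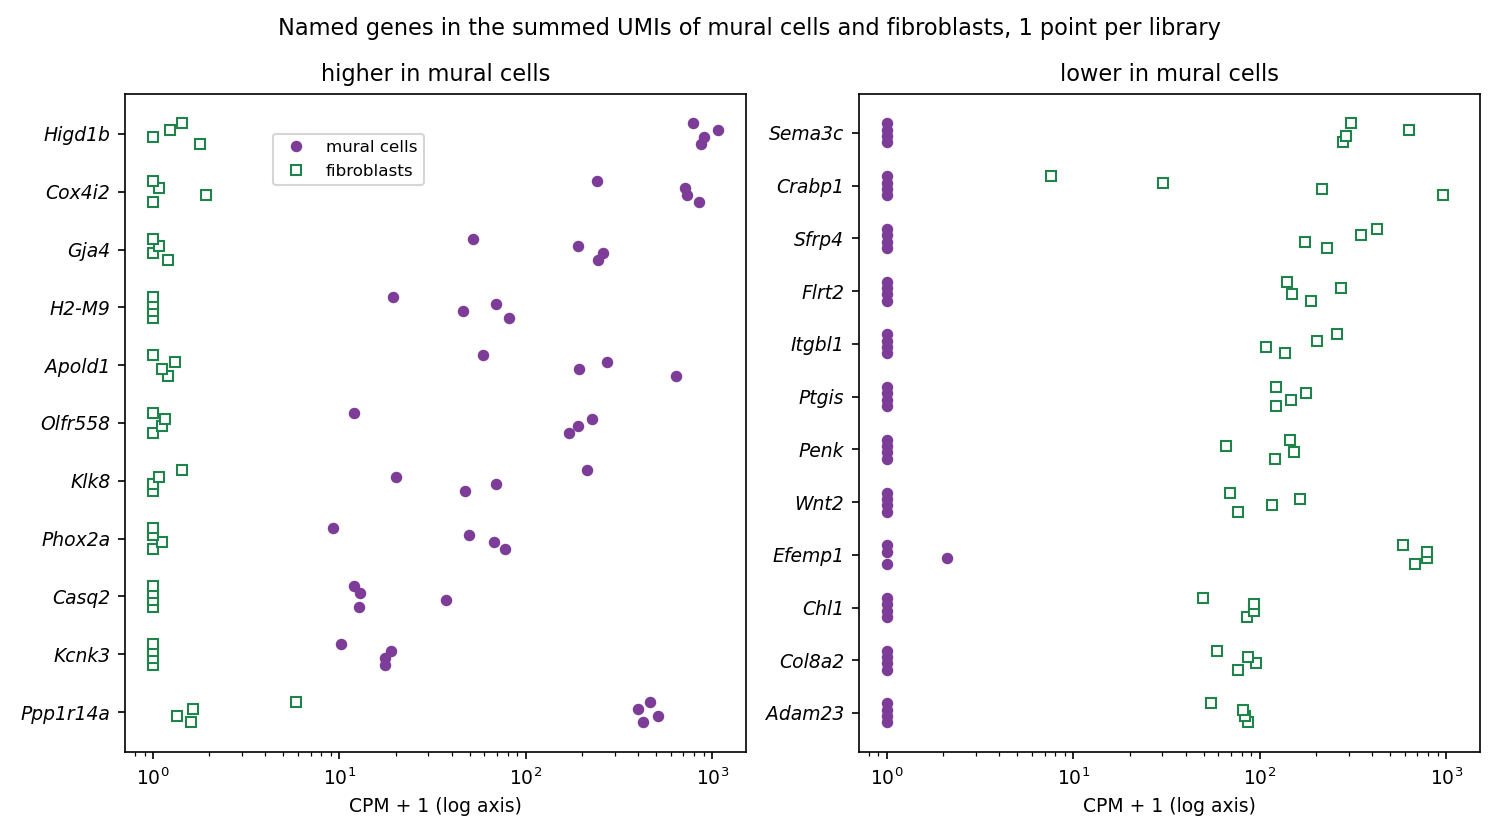
Named genes with the largest difference in each direction between mural cells (filled circles) and fibroblasts (open squares), as CPM + 1 on a log axis, with 1 point per library. The 2 classes do not overlap for any of these genes, which was a condition for naming them, and mural Higd1b lies between 783 and 1067 CPM.

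Genes known for pericytes were mostly higher in mural cells. Of 26 listed genes, all of which could be tested, 24 were higher and 1 was lower, with a median log2 difference of 4.38. Des, the muscle intermediate filament, was at 447, 385, 429 and 294 CPM in mural cells and at 0.785, 1.27, 0.715 and 3.06 CPM in fibroblasts (8.21 ± 0.34, adjusted p = 3.47e-07 by edgeR). Art3, an ADP-ribosyltransferase family member, was at 284, 343, 300.2 and 214 CPM against 4.71, 5.87, 9.05 and 10.9 CPM. Vtn, which encodes the adhesive protein vitronectin, was at 252, 233, 322 and 278 CPM against 12, 7.94, 6.99 and 1.75 CPM. These genes did not overlap between the classes in any library. Anpep, the membrane peptidase CD13, was the listed gene lower in mural cells, at 44.0, 47.5, 31.0 and 18.3 CPM against 85.2, 67.3, 102 and 116 CPM (-1.56 ± 0.29, adjusted p = 0.0022 by edgeR). Cd248, also called endosialin, did not pass the test, with 616, 522, 506 and 488 CPM in mural cells and 458, 593, 846 and 523 CPM in fibroblasts.

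Ion channels and their regulators were higher in 12 of 13 genes tested, of 20 listed, with a median log2 difference of 4.97 and 0 lower. Kcnj8, the pore of the ATP-sensitive potassium channel, was at 873, 629, 837 and 493 CPM in mural cells and at 16.9, 18.6, 31.4 and 31.5 CPM in fibroblasts (4.73 ± 0.28, adjusted p = 2.08e-06 by edgeR). Its regulatory subunit Abcc9 was at 1244, 726, 854 and 471 CPM against 21.4, 19.3, 21.0 and 32.4 CPM. Both subunits were thus higher than in fibroblasts in every mural library, with the lowest mural values in Cre+ replicate 4. Endothelial cells also held Abcc9. With cells thinned, the shares with an Abcc9 UMI were 78.1%, 78.4%, 78.8% and 52.3% in mural cells. They were 23.5%, 21.2%, 32.2% and 36.2% in endothelial cells and 5.24%, 3.01%, 4.88% and 10.3% in fibroblasts. Thinned Kcnj8 shares were 79.7%, 56.9%, 69.2% and 45.5% in mural cells. Those of endothelial cells (5.56%, 7.28%, 6.61% and 10.3%) and fibroblasts (4.19%, 3.38%, 7.71% and 5.15%) overlapped. Trpc6, a calcium-permeable channel, was at 228, 139, 164 and 62.4 CPM and did not exceed 0.875 CPM in fibroblasts. Atp1b2, a subunit of the sodium pump, was at 158, 175, 167 and 96.3 CPM against 4.51 CPM or less. Trpm4 did not pass the test, at 9.78, 11, 19.1 and 9.17 CPM in mural cells.

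Receptors and signaling genes of vessel tone were higher in 16 and lower in 5 of 21 tested, of 28 listed, with a median log2 difference of 2.20. Rgs16, which shortens signals of G protein-coupled receptors, was at 825, 630.2, 528 and 316 CPM in mural cells and at 23.7, 37.3, 11.7 and 23.2 CPM in fibroblasts (4.45 ± 0.28, adjusted p = 3.05e-06 by edgeR). Gucy1a1 and Gucy1b1, the subunits of the nitric oxide receptor, were at 549, 373, 423 and 216 CPM and at 361, 295, 342 and 171 CPM in mural cells. Both stayed under 13 CPM in every fibroblast library. The endothelin receptors Ednra and Ednrb were at 352, 255, 279 and 219 CPM and at 304, 53.0, 66.7 and 124 CPM, and Agtr1a, the angiotensin receptor, was at 130.1, 108, 91.7 and 106 CPM. Against this, the natriuretic peptide receptor Npr2 had 1 UMI in all mural cells and the prostaglandin receptor Ptger3 had none, while fibroblasts held Ptger3 at 19.8, 44.1, 48.4 and 54.7 CPM.

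Contractile genes were higher in 13 and lower in 0 of 17 tested, of 20 listed, with a median log2 difference of 2.45. Acta2, smooth muscle actin, was at 1990, 3198, 3327 and 4175 CPM in mural cells and at 400, 779, 450.2 and 441 CPM in fibroblasts (2.45 ± 0.30, adjusted p = 0.000175 by edgeR). Myh11, the smooth muscle myosin heavy chain, was at 182, 196, 183 and 98.1 CPM against 3.53, 0.230, 0.238 and 0 CPM. The regulatory light chain Myl9 was at 526, 571, 654 and 706 CPM against 80.9, 122, 85.4 and 67.0 CPM (2.63 ± 0.21, adjusted p = 1.45e-05 by edgeR). These 3 genes did not overlap between classes, and Myh11 was the one lowest in Cre+ replicate 4. Synpo2 and Lmod1, an actin-bundling protein and an actin nucleator of muscle, were the listed genes with the smallest p, with log2 differences of 4.16 ± 0.19 and 5.75 ± 0.41. Tagln, an actin-binding protein, did not pass, at 1093, 1739, 1899 and 2603 CPM in mural cells and 711, 1357, 1051 and 888 CPM in fibroblasts (0.68 ± 0.27, adjusted p = 0.0778 by edgeR). Cnn1, a marker of mature smooth muscle, was at 0, 12.1, 4.76 and 15.6 CPM in mural cells and did not pass either.

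Smooth muscle genes are known to be controlled by serum response factor, which binds the CArG box. The stretches before the start sites of Myl9 and Acta2 are shown because both genes were higher in mural cells and both stretches hold such boxes or close matches. Of the 20 contractile genes, 16 had an entry in the RefSeq promoter table for GRCm38.p6. The search read both strands at once, as the motif is its own reverse complement, over the 250 bases before each start. Myl9 was the 1 gene of 16 with the full CArG box, which 1.62% of all 27025 gene symbols held. A looser form, CCNNNNNNGG with at least 5 of the 6 middle bases A or T, which includes the full form, occurred in 3 of 16 (Acta2, Myl9 and Pcp4l1) and in 9.78% of all symbols. It also occurred in 3 of the 18 matched genes of the fibroblast list (16.7%) and in 0 of the 15 matched genes of the pericyte list. Capitals mark the matches to the looser form, which are a description of letters and not sites of binding. The first stretch is chr2:156775214-156775463 on the + strand, with matches that begin 161 and 99 bases before the start, and the second is chr19:34255374-34255623 on the - strand, with matches that begin 84 and 34 bases before it.
Myl9: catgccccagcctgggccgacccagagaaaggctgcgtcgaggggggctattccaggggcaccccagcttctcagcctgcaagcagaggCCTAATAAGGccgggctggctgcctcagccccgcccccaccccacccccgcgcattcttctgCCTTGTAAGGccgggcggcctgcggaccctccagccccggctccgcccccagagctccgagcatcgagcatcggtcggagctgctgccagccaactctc
Acta2: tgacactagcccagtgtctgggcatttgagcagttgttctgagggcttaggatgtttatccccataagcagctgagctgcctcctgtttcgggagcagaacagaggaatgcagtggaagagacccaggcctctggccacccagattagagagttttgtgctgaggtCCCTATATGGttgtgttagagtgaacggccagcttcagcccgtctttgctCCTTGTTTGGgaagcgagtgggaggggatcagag

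Within the mural cells the contractile genes varied widely. The contractile list made up a median of 64.0, 77.3, 73.8 and 110.2 UMIs per 10000, with lowest cells at 25.6, 7.58, 23.6 and 10.9 and highest cells at 367, 471, 410.4 and 315. Every mural cell thus had at least 1 UMI of the list. The part of background in such UMIs was not tested, and 3.95%, 7.70%, 4.45% and 11.4% of immune cells also held an Acta2 UMI. Myh11 was at 0 in 27, 19, 13 and 22 mural cells. With each cell thinned to 2000 UMIs, 17 of 64, 14 of 51, 12 of 52 and 5 of 44 cells held at least 1 Myh11 UMI. Of these, 10, 8, 7 and 4 held exactly 1. The remaining 47, 37, 40 and 39 cells had no Myh11 UMI left after thinning, though some held Myh11 at full depth. The other contractile genes summed to 12618, 13214, 14250 and 18600 CPM on the Myh11 side, against 6277, 8608, 9938 and 10641 CPM in the remaining cells. This sum was higher on the Myh11 side in each of the 4 libraries. The pericyte list did not follow it, with 13882, 12643, 13208 and 7600 CPM in cells with Myh11 against 14809, 11892, 13275 and 6769 CPM without. Kcnj8 was lower on the Myh11 side in each library, by little in Cre- replicate 3, at 824, 643, 417 and 200 CPM against 1117, 689, 938 and 372 CPM. Its channel partner Abcc9 did not follow this, at 1029, 750, 1083 and 500 CPM on the Myh11 side against 1340, 865, 1050 and 449 CPM. Notch3 and Pdgfrb were likewise higher on the Myh11 side in some libraries and lower in others. The cells were cut by a gene of the same program, so no test was made. The Myh11 side rests on 28000 UMIs in Cre- replicate 3 and on 10000 UMIs in Cre+ replicate 4, so its values there are coarse. Thinned shares of cells with a Myh11 UMI were 0% of endothelial cells and fibroblasts in each library. They were 0.0727%, 0.166%, 0% and 0.390% of immune cells and 0.318%, 0.177%, 0.314% and 0.302% of epithelial cells.

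**Figure D4:**
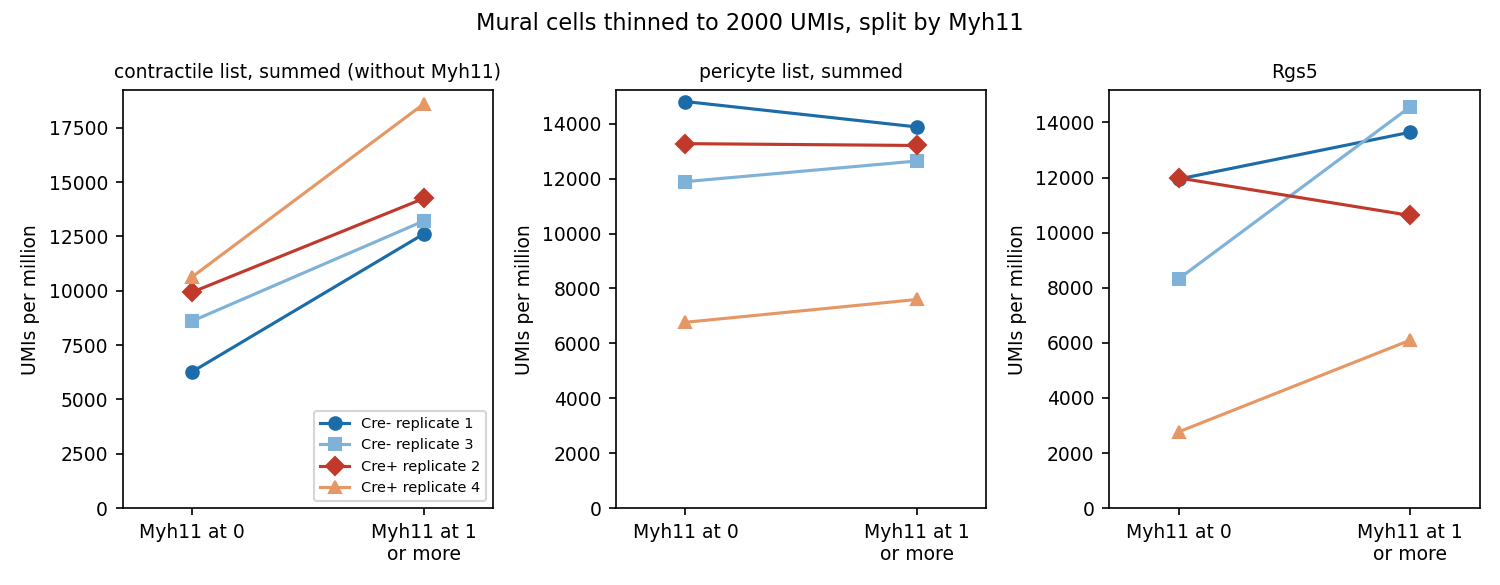
Mural cells thinned to 2000 UMIs and split by whether Myh11 was detected, with CPM on the vertical axes for the contractile list without Myh11, the pericyte list and Rgs5, and 1 line per library. The contractile sum is higher on the Myh11 side in all 4 libraries, at 12618 against 6277 CPM in Cre- replicate 1, whereas the pericyte list and Rgs5 are higher there in some libraries and lower in others.

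Of the Notch genes, 4 were higher and 3 lower among 9 tested, of 17 listed (median log2 difference 0.53). Nrarp, a target and feedback inhibitor of Notch, was at 138, 138, 92.9 and 8.25 CPM in mural cells and at 0.46 CPM or less in fibroblasts, so its level in Cre+ replicate 4 was far under the others. The target Heyl was at 189, 119, 157 and 48.6 CPM, and the receptor Notch1 at 108, 78.4, 76.2 and 33.0 CPM. The ligand Jag1 was at 198, 128, 155 and 90.8 CPM in mural cells, above the 43.2, 51.9, 62.3 and 62.6 CPM of fibroblasts (1.21 ± 0.23, adjusted p = 0.00263 by edgeR). The receptor Notch2 was lower, at 12.7, 8.83, 5.96 and 14.7 CPM against 42.6, 44.2, 46.3 and 40.3 CPM. The ligand Dll4 had 1 UMI in all mural cells and was at 220.3, 222, 313 and 311 CPM in endothelial cells.

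Of the 6 listed PDGF genes, 5 were tested, of which 2 were higher, Pdgfrb among them, and 3 were lower. Pdgfa, a ligand of Pdgfra, was at 425, 426, 413 and 645 CPM in mural cells and at 13.5, 36.3, 35.0 and 23.2 CPM in fibroblasts (3.96 ± 0.32, adjusted p = 1.47e-05 by edgeR). Pdgfd, a ligand of Pdgfrb, was lower, at 4.89, 1.10, 5.96 and 0 CPM against 21.2, 34.3, 44.8 and 33.7 CPM. Pdgfb itself was at 4.89, 5.52, 5.96 and 2.75 CPM in mural cells and at 163, 174, 255 and 355 CPM in endothelial cells. Pdgfb was at 5.48 CPM or less in fibroblasts and at 81.3, 76.8, 94.2 and 61.1 CPM in immune cells, so that of these 4 classes endothelial cells held the highest level in every library.

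Angiogenic ligands and receptors were split, with 5 higher and 5 lower among 15 tested, of 19 listed (median log2 difference -0.87). For this list and the TGF-beta and BMP genes below, 17.4% of all genes tested were higher and 21.1% lower. The VEGF receptor Flt1 was at 308, 147, 222 and 343 CPM in mural cells, against 39.3, 12.4, 19.1 and 6.56 CPM in fibroblasts and 1013, 1170, 1311 and 1456 CPM in endothelial cells. Pgf, a ligand of Flt1, was at 24.5, 92.7, 27.4 and 92.6 CPM in mural cells and at 6.79 CPM or less in fibroblasts. The mural libraries of the genotypes overlapped for both genes. Angpt2, which loosens vessels as a counterpart of Angpt1, was at 93.9, 57.4, 98.9 and 61.5 CPM in mural cells and did not exceed 12.8 CPM in fibroblasts (3.72 ± 0.57, adjusted p = 0.000777 by edgeR). Angpt1, the stabilizing ligand of the receptor Tek, did not pass the test, at 15.7, 8.83, 22.6 and 18.3 CPM in mural cells. Vegfd was lower, with 2.75 CPM or less in mural cells and 69.3, 122, 150.3 and 150.1 CPM in fibroblasts. Of the TGF-beta and BMP genes, 4 were higher and 7 lower among 20 tested, of 22 listed (median -0.29), with the coreceptor Eng at 125, 90.5, 114 and 144 CPM in mural cells against 29.2, 25.6, 40.8 and 22.3 CPM.

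The matrix genes were listed in 2 groups, basement membrane and interstitial matrix, and the difference between the groups was not tested. Of the basement membrane genes, 6 were higher and 8 lower among 17 tested, of 24 listed (median -0.54). Col4a1 and Col4a2, the chains of the main type IV collagen, were at 5725, 5540, 5297 and 4888 CPM and at 2419, 2266, 2275 and 2179 CPM in mural cells. Fibroblasts held Col4a1 at 1083, 808, 383 and 648 CPM (2.78 ± 0.23, adjusted p = 1.62e-05 by edgeR). The chains were high in every mural library, and Cre+ replicate 4 did not stand apart. Col18a1 was at 587, 743, 739.7 and 626 CPM against 56.5, 52.7, 40.9 and 45.9 CPM, whereas Col4a5, another type IV chain, was lower, at 2.75 CPM or less in mural cells. Of the interstitial matrix genes, all 32 of which were tested, 3 were higher and 26 lower (median -2.19). The microfibril gene Mfap5 was at 8.34 CPM or less in mural cells and at 1892, 2881, 3245 and 2502 CPM in fibroblasts. Among the 3 higher, Sparcl1 was at 2789, 2496, 2881 and 1879 CPM in mural cells and at 277, 82.9, 38.0 and 266 CPM in fibroblasts, and Col5a3 and Col6a3 were the others. Of the 26 fibroblast genes listed, 25 were tested, 23 were lower and 1, Thy1, was higher. C3 of the complement system had 1.19 CPM or less in mural cells and 1510, 1590, 1820 and 1769 CPM in fibroblasts.

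Integrins were higher in 5 and lower in 4 of 12 tested, of 15 listed (median 0.69), against 17.4% and 21.1% of all genes tested. Itga1, a collagen receptor chain, was at 1528, 1122, 1370 and 1224 CPM in mural cells and at 104, 47.9, 31.2 and 46.8 CPM in fibroblasts (4.43 ± 0.32, adjusted p = 7.93e-06 by edgeR). Itga7, a laminin receptor chain, was at 105, 87.2, 102 and 36.7 CPM in mural cells and under 1 CPM in fibroblasts. Chemokines and cytokines were mostly lower, with 2 higher and 10 lower among 18 tested, of 20 listed (median -1.49). Cxcl12, the stromal ligand of Cxcr4, was at 27.4, 8.83, 38.1 and 3.67 CPM in mural cells against 420.4, 612, 567 and 1276 CPM in fibroblasts, and the alarmin Il33 was at 7.73 CPM or less against 366, 340.2, 417 and 317 CPM. Il34, a ligand of the macrophage receptor Csf1r, was higher, at 163, 153, 219 and 138 CPM against 46.7, 46.3, 41.3 and 29.3 CPM.

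Cell cycle genes were higher in mural cells in 17 of 19 tested, of 20 listed, with 0 lower and a median log2 difference of 1.37. Tpx2, of the mitotic spindle, was at 52.8, 85.0, 54.8 and 56.0 CPM in mural cells and at 20.6, 12.4, 16.8 and 14 CPM in fibroblasts (1.79 ± 0.22, adjusted p = 0.000172 by edgeR). The proliferation marker Mki67 was at 81.2, 115, 105 and 56.0 CPM against 34.0, 27.5, 28.1 and 44.6 CPM (1.27 ± 0.24, adjusted p = 0.00269 by edgeR). Mural libraries stood above fibroblast libraries for both genes, by the least in Cre+ replicate 4 for Mki67. With cells thinned to 2000 UMIs, 4 of 64, 5 of 51, 3 of 52 and 4 of 44 mural cells held a Mki67 UMI, or 6.25%, 9.80%, 5.77% and 9.09%, against 3.14%, 2.63%, 2.57% and 3.09% of fibroblasts. Unthinned, the shares were 11.8%, 24.5%, 13.5% and 13.3% against 7.69%, 6.99%, 5.24% and 7.14%. These are few cells, and Top2a did not pass the test, with 15.6 CPM in Cre+ replicate 4 against 117, 110.4 and 141 CPM in the other mural libraries. Of the hypoxia and glycolysis genes 4 were higher and 2 lower among 18 tested, of 20 listed (median 0.42). Of all genes tested 17.4% were higher and 21.1% lower, so these counts are not read as a result about the list. Ndufa4l2, which replaces a subunit of cytochrome c oxidase, was at 1067, 1307, 1229 and 872 CPM against 43.8, 145, 57.1 and 47.3 CPM. Immediate early and stress genes, which also respond to tissue dissociation, had 0 higher and 3 lower among 20 tested (median -0.07).

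Markers of other classes bear on these values. Of 15 endothelial markers 8 were tested, 5 were higher and 2 lower than in fibroblasts. For this and the other marker lists, 17.4% of all genes tested were higher and 21.1% lower. The junction protein Esam was at 249.5, 204, 222 and 140.3 CPM and the sialomucin Emcn at 56.8, 124, 71.5 and 172 CPM in mural cells, against 768, 852, 884 and 947 CPM and 978, 1101, 1113 and 1012 CPM in endothelial cells. The defining endothelial genes Cdh5 and Kdr were at 7.83, 1.10, 1.19 and 0 CPM and at 1.96, 0, 0 and 0.917 CPM in mural cells, and Tek had no UMI in any of them. The summed level of the endothelial list in mural cells was 868, 681, 719 and 1054 CPM. Macrophage markers summed to 395, 358, 463 and 209 CPM, with Cd74 or Apoe on top, and had 0 higher and 2 lower among 12 tested of 15. None of the 13 lymphocyte markers passed the filter, and they summed to 17.7 CPM or less. Luminal markers summed to 426, 472, 780 and 701 CPM, with 0 higher and 1 lower among 6 tested of 15. Both classes had been cut by the epithelial limit. The 10 myoepithelial markers, none tested, summed to 2.94, 2.21, 3.57 and 95.4 CPM, and the 5 erythrocyte genes, none tested, to 0, 6.62, 891 and 13.8 CPM, with Hbb-bs at 429 CPM on top in Cre+ replicate 2. The 6 granulocyte markers summed to 50.0 CPM or less, with G0s2 on top, and that gene alone was tested and was higher. The 8 Schwann cell markers summed to 22.5 CPM or less with 2 tested and both lower, and the 8 skeletal muscle markers, none tested, to 9.53 CPM or less. Of 9 adipocyte markers 3 were tested, 1 was higher and 1 lower. The higher one, the fatty acid binding protein Fabp4, was at 1241, 1108, 1288 and 2063 CPM in mural cells and at 7.85, 24.3, 7.15 and 334 CPM in fibroblasts, while Adipoq, which defines adipocytes, had no UMI in mural cells.

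Frmd8 and 7 genes linked to it were also compared between the classes, and 7 of the 8 were tested. Frmd8 was higher in mural cells than in fibroblasts, which held 17.3, 19.1, 15.5 and 13.6 CPM (0.74 ± 0.16, adjusted p = 0.00623 by edgeR). Ube3a, a ubiquitin ligase, was also higher, at 247, 160.0, 211 and 321 CPM against 111, 116, 106 and 132 CPM. Adam17, the sheddase whose partner iRhom proteins bind Frmd8, was lower, at 25.4, 23.2, 40.5 and 36.7 CPM against 64.6, 62.6, 58.2 and 54.7 CPM (-1.11 ± 0.18, adjusted p = 0.000972 by edgeR). Esr1, the estrogen receptor, was lower, at 10.8, 7.73, 7.15 and 3.67 CPM against 38.3, 34.7, 53.1 and 50.3 CPM. The iRhom genes Rhbdf1 and Rhbdf2 and the transcription factor Foxo3 did not pass the test, and Pgr was not tested.

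The comparison of the genotypes asks whether mural cells differed between tumors with and without Frmd8 in the luminal epithelium. No gene passed: 0 of 8470 tested (0%) had an adjusted p under 0.05 by edgeR, with 309 at an unadjusted p under 0.05, and DESeq2 called 2 of 15600, Ifit3 and Cxcl1. With no filter on low counts edgeR called 137 of the 15600 genes, 104 higher and 33 lower. The comparison rests on 2 mice a group. Both Cre+ libraries were above both Cre- libraries in 14.6% of the genes tested and under them in 16.6%. With a single Cre+ mouse left the counts changed, to 523 genes without Cre+ replicate 2 and to 35 without Cre+ replicate 4, where the lone library is assumed to vary as the Cre- ones do. The difference between the genotype effects in mural cells and in fibroblasts passed in 0 of 10778 genes (0%) by edgeR, with 541 at an unadjusted p under 0.05, and in 45 without Cre+ replicate 2; another tool was not run for it.

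The genes with the smallest unadjusted p are given as values that did not pass. Cxcl1, a chemokine for neutrophils, was at 1555 and 1828 CPM in the Cre- libraries and at 699 and 325 CPM in the Cre+ libraries (-1.72 ± 0.36, unadjusted p = 0.00158, adjusted p = 0.998 by edgeR). Tnfaip3, an inhibitor of NF-kappaB signaling, was at 314, 110.4, 61.9 and 32.1 CPM, and the immediate early gene Egr3 was at 67.5, 28.7, 10.7 and 11 CPM. St3gal2 and Gem had the same order of groups. In the other direction, Ifit3 and Ifit3b, a pair of interferon-induced genes, were at 19.6, 7.73, 58.4 and 242 CPM and at 2.94, 0, 11.9 and 52.3 CPM. They are close copies of each other, so their counts are uncertain. Rtp4, another interferon-induced gene, was at 24.5, 23.2, 50.0 and 93.6 CPM, the mitochondrial gene Chchd10 at 7.83, 5.52, 45.3 and 20.2 CPM, and Csprs at 4.89, 3.31, 15.5 and 26.6 CPM. The genotypes did not overlap for these 10 genes, which was a condition for naming them, and Cre+ replicate 4 was the extreme library for 8 of them. Without it, the log2 differences kept their sign in the 9 genes that could be tested, at 2.04 for Ifit3, 2.71 for Chchd10, 1.05 for Rtp4, 1.85 for Csprs, -1.29 for Cxcl1, -2.18 for Egr3, -1.16 for St3gal2, -1.80 for Tnfaip3 and -1.40 for Gem, and Ifit3b was not tested. In that fit, in which the lone Cre+ library is assumed to vary like the Cre- libraries, Ifit3, Chchd10, Egr3 and Tnfaip3 passed, with adjusted p of 0.000503, 0.000138, 0.00379 and 0.00316 by edgeR, and the other 5 did not.

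**Figure D5:**
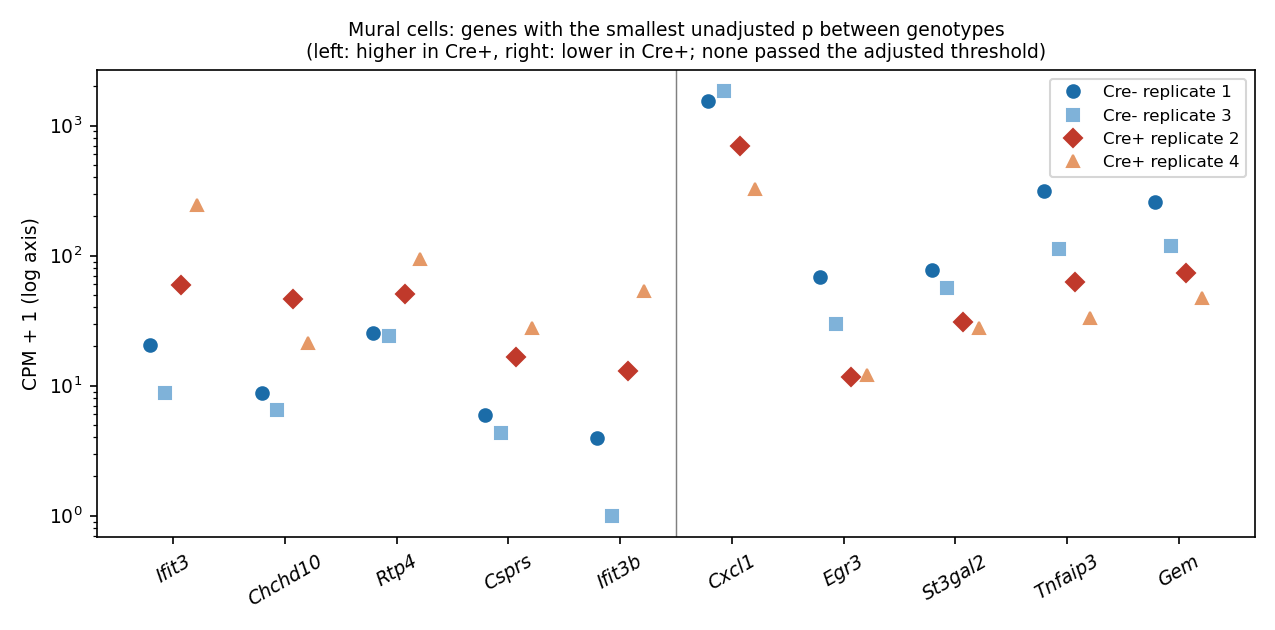
The 5 genes with the smallest unadjusted p in each direction between genotypes in mural cells, as CPM + 1 on a log axis, with 1 point per library. The groups do not overlap by the condition for naming, none of the 10 genes passed the adjusted threshold, and Cxcl1 lies at 1555 and 1828 CPM in the Cre- libraries and at 699 and 325 CPM in the Cre+ libraries.

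Of the genes linked to Frmd8, none passed between genotypes. Rhbdf1 was at 59.7, 47.5, 33.4 and 31.2 CPM (-0.71 ± 0.28, adjusted p = 0.998 by edgeR) and Adam17 at 25.4, 23.2, 40.5 and 36.7 CPM (0.69 ± 0.30), with no overlap between the groups for either. Ube3a, Foxo3 and Rhbdf2 had log2 differences of 0.43 ± 0.33, -0.05 ± 0.35 and -0.08 ± 0.78. Without Cre+ replicate 4 the differences were -0.70 for Rhbdf1, 0.71 for Adam17, 0.031 for Ube3a, 0.23 for Foxo3, whose sign turned, and -0.098 for Frmd8, and Rhbdf2 was not tested. The sign also turned for Ube3a under the limits of the study (-0.28), for Foxo3 under these limits (0.049) and without Cre- replicate 3 (0.057), and for Rhbdf2 with at least 5 UMIs of the 3 mural genes (0.098), without Cre- replicate 1 (0.29) and without Cre+ replicate 2 (0.62). Across the pericyte list the median log2 difference between Cre+ and Cre- was -0.40, with 8 of 26 genes under and 1 above in both Cre+ libraries, against 16.6% and 14.6% of all genes tested, and the median was -0.70 without Cre+ replicate 2 and -0.098 without Cre+ replicate 4. The 18 contractile genes tested had a median of 0.22, with 5 above and 0 under, and the median was 0.17 without Cre+ replicate 4. The 19 cell cycle genes had a median of -0.53, with 4 under and 0 above, a share near that of all genes. Their sum was 1529, 2234, 1797 and 850.3 CPM, so that Cre+ replicate 4 alone lay under the Cre- libraries, and the median was -0.12 without it. The 9 Notch genes tested had a median of -0.59, with 3 under and 0 above, and -0.13 without Cre+ replicate 4. The 18 hypoxia and glycolysis genes had a median of 0.71, with 3 above and 1 under, which turned to -0.17 without Cre+ replicate 4, and their sum was 2921, 3079, 2846 and 4438 CPM. The 13 chemokine and cytokine genes had a median of 0.48, with 0 above and 3 under, which turned to -0.86 without that library. The 7 luminal markers tested had a median of 0.62, with 3 above and 0 under, 0.73 without Cre+ replicate 4 and 0.17 without Cre+ replicate 2, and the sum of the list at 426, 472, 780 and 701 CPM was higher in both Cre+ libraries. The 10 macrophage markers tested had a median of -0.42, with 4 under and 0 above, Cd74 among them at 130, 65.1, 50.0 and 24.8 CPM, and -0.070 without Cre+ replicate 4. The sum of the macrophage list, at 395, 358, 463 and 209 CPM, overlapped between the genotypes. The 20 immediate early and stress genes, which also respond to dissociation, had a median of -0.28, with 2 of 20 above 0, 2 under and 1 above without overlap, and -0.17 without Cre+ replicate 4, and they summed to 19741, 12406, 15202 and 9415 CPM. Of the 3 adipocyte markers tested 2 were above in both Cre+ libraries, Fabp4, given above, and Lpl at 98.8, 94.9, 123 and 225 CPM (median 0.55, and 0.32 without Cre+ replicate 4), and Adipoq, which defines adipocytes, was at 0 in mural cells of every library. The 6 endothelial markers tested had a median of 0.41, with 1 above and 0 under, which turned to -0.060 without Cre+ replicate 4, and the list summed to 868, 681, 719 and 1054 CPM. The part of luminal, macrophage, adipocyte and endothelial transcripts and of the dissociation genes in the other list values and in the genes named above, Egr3, Cxcl1, Tnfaip3 and Gem among them, was not tested. None of the genes of these lists passed the test, and the median of all genes was -0.00.

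The mural share of all kept cells was 1.38%, 0.896%, 0.927% and 0.632%, with exact 95% binomial intervals of 1.07 to 1.75%, 0.672 to 1.17%, 0.693 to 1.21% and 0.461 to 0.844% that cover counting error only. The difference between Cre+ and Cre- was -0.359 percentage points, with means of 0.779% ± 0.209 and 1.14% ± 0.344 (SD, n = 2 each, exact two-sided permutation test, p = 0.667). The difference was -0.211 points without Cre+ replicate 4, -0.116 without Cre- replicate 1 and -0.169 with the depth limit for replicate 4, whose share was then 1.01%. That limit kept only barcodes over 10978 UMIs in Cre+ replicate 4, which left 3854 of its 7123. The other libraries kept all barcodes from 1000 UMIs, so the denominators of that setting are unlike. The groups overlapped, although they did not under the limits of the study (-0.609 points) or without mural cells that held Dcn or Lum (-0.471 points), both with p = 0.333 by the same exact test, and 2 against 2 mice cannot give a p under 0.333. Among the mural, fibroblast and endothelial cells combined, mural cells made up 15.8%, 11%, 8.97% and 21.0%, a difference of 1.58 percentage points (exact two-sided permutation test, p = 1). This share had its lowest and its highest value in the Cre+ group, and the sign of the difference turned without replicate 4, to -4.45 points. The cells had been sorted before capture by a gate not described in the sources used here, and its part in these shares was not tested.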

How the data were processed

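The counts deposited by the authors are UMIs for each gene in each barcode, without normalization, for 4 mouse tumor libraries. Per the file headers they were made with Cell Ranger 6.1.2 (replicates 1 to 3, called cells) and Cell Ranger 4 (replicate 4, all barcodes), so version, deposited form and genotype partly overlap. The labels name a human build although the gene identifiers are from mouse, so the mouse build used for counting is not given in the sources used here, and no coordinate was taken from the files. The libraries held 122658098, 126843597, 112729231 and 157662955 UMIs over 32285 genes, in the order Cre- replicates 1 and 3 and Cre+ replicates 2 and 4.

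Barcodes with at least 1000 UMIs and at most 20% mitochondrial UMIs were kept (4922, 5918, 5609 and 7123). The members and lists were chosen with earlier results of these data known. No annotation of cells was used, and no doublet caller was run, so that only the gates remove mixed barcodes, and an alternative gate removed barcodes with Cdh5, Kdr, Tyrobp, Csf1r, Krt5 or Krt14. UMI counts were summed per library and class and tested with edgeR 4.0.16 (TMM, filterByExpr, glmQLFit and glmQLFTest) in R 4.3.3, with genotype as covariate of the class comparison. CPM are UMIs per 1000000 UMIs of the sum, and as 1 UMI stands for 1 molecule they were not divided by gene length. The class comparison used no block for the mouse. The mural and fibroblast sums of a library come from the same mouse, so they are paired by animal, and their deviations from the group means correlated over genes at 0.125, 0.127, 0.0371 and -0.0688. Intervals and floors (3 counts) cover counting error only, and p-values of the genotype comparison measure the spread between single mice. List medians were the same with genes at 0 in a class set to their bound. The scripts were tested on simulated data.

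Alternatives were DESeq2 1.42.0, RLE size factors, no filter on low counts, 2000 UMIs or more, at least 5 UMIs of the 3 genes, a stricter gate, the study's limits (read as keeping 200 to 5000 genes and fewer than 30000 UMIs), a depth limit for replicate 4, thinning to 2000 UMIs, the collagen sum in UMIs, the mouse as a block, each mouse left out and, chosen after seeing the data, mural cells with no UMI of Dcn or Lum. Named genes were the 12 called genes of largest log2 difference in each direction whose libraries did not overlap between classes and that had at least 50 UMIs, without rule genes, mitochondrial genes and unnamed gene models. Of these, 1 gene is not reported here. In each list, examples were taken from the genes of smallest p, and other list members are named as genes of known role chosen after their values were seen. Between genotypes the 5 genes of smallest p in each direction that did not overlap and had at least 20 UMIs were named. Promoter letters were read from RefSeq tables for GRCm38.p6.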

Additional observations from a re-analysis of the deposited data

How the results depend on the processing

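The counts of genes between mural cells and fibroblasts stayed within 1.5 times of 3788 under all alternatives but thinning to 2000 UMIs, which called 985 of the 2651 genes left to test, and leaving out each replicate gave 2574 to 4381. With the mouse as a block (replicate block) 3506 genes were called, 1559 higher and 1947 lower, of which 3412 were among the 3788. The block changed no call of the 24 genes chosen by the naming rule. Calls under the block are not given here for the other genes named above. All 24 genes chosen by the naming rule kept their direction and stayed called under every alternative in which they were tested. In the genotype comparison, 137 genes were called with no filter on low counts (104 higher and 33 lower), 2 with DESeq2 and 0 to 523 with each replicate left out (523 without replicate 2, 35 without replicate 4). The genotype effect in mural cells against that in fibroblasts gave 0 to 45 calls with each replicate left out and 0 with the replicate block. The cause of these changes was not tested. Leaving out the filter moved the median log2 difference of all genes between classes from -0.01 to -0.23, and DESeq2 to 0.15, over 19558 genes.

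The mural share of stromal cells turned to -2.48 points under the limits of the study, to -1.45 with thinned cells, to -3.01 without mural cells that held Dcn or Lum, and to between -4.45 and 7.61 with each replicate left out. The share of all cells kept its direction, between -0.602 and -0.116 points with each replicate left out. It was -0.169 with the depth limit for replicate 4 (whose share was then 1.01%), a limit set on that library alone. It was -0.609 under the limits of the study and -0.471 without mural cells that held Dcn or Lum. Among genes linked to Frmd8, the sign turned for Ube3a under the limits of the study (-0.28), for Foxo3 under these limits (0.049), for Rhbdf2 with at least 5 UMIs (0.098) and for Frmd8 with the stricter gate (0.14), under the limits of the study (0.026) and without mural cells that held Dcn or Lum (0.027). With each replicate left out, the log2 differences ran from -0.36 to 0.23 for Foxo3, from -0.38 to 0.62 for Rhbdf2 and from -0.27 to 0.26 for Frmd8. None of these passed the test. The 10 genes named between genotypes kept their direction and passed in 24 results of alternatives, which were those without a filter, with DESeq2 or without replicate 2 or 4. Depth limits what 45 to 68 cells per mouse can show, and genes under the filter were not compared.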
